A study of Mus musculus with 12 samples.

Results

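The genes described here are 7 chemokine ligands (Ccl2, Ccl3, Ccl4, Ccl6, Ccl7, Ccl8 and Ccl9) and 2 chemokine receptors (Ccr1 and Ccr2), 9 of the 23474 genes in a table of expression in mouse epididymal white adipose tissue (eWAT). They were chosen by name as monocyte chemokines and receptors, not by any measured value. RNA-seq libraries came from 12 male C57BL/6J mice, 3 in each of 4 diet groups, and each library was 1 mouse. Mice were given a normal diet (ND), a high-fat diet (HFD), the HFD with an ethanol extract of green tea at 0.25% of its weight (GT), or the HFD with Taeeumjowitang, an herbal medicine of plant water extracts, at 3% of its weight (TJ). Feeding began at 5 weeks of age and lasted 12 weeks, so all mice were 17 weeks old, and the 3 mice sequenced were drawn from groups of 10. The GT and TJ mice ate the same HFD as the HFD group, and both additives were therefore compared with that group. The questions were how the HFD changed these genes in eWAT and whether they were lower when either additive was in the diet.

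Chemokines are small secreted proteins that direct the movement of leukocytes through G protein-coupled receptors. Ccr2, carried by inflammatory monocytes, binds the proteins made from Ccl2 and Ccl7, and this pair is known for bringing monocytes from blood into fat during obesity. Ccr1 binds the proteins made from Ccl3, Ccl6, Ccl7 and Ccl9, and Ccl6 and Ccl9 are rodent genes made in large amounts by macrophages and other myeloid cells.

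The 7 ligand genes all lie on chromosome 11 and the 2 receptor genes on chromosome 9 (GRCm38). The monocyte chemoattractant genes stand together on the plus strand, Ccl2 (ENSMUSG00000035385) at chr11:82035571-82037453, Ccl7 (ENSMUSG00000035373) at chr11:82045712-82047525 and Ccl8 (ENSMUSG00000009185) at chr11:82115185-82116799. The other 4 form another group, Ccl9 (ENSMUSG00000019122) at chr11:83572919-83578636, Ccl6 (ENSMUSG00000018927) at chr11:83587882-83593087 and Ccl3 (ENSMUSG00000000982) at chr11:83647844-83649355 on the minus strand, and Ccl4 (ENSMUSG00000018930) at chr11:83662584-83664683 on the plus strand. Ccr1 (ENSMUSG00000025804) is at chr9:123962124-123968692 on the minus strand and Ccr2 (ENSMUSG00000049103) at chr9:124101950-124113557 on the plus strand. Values are FPKM over the whole gene, a fragment count divided by transcript length and by library size, so levels may be set against each other between genes. Whether the authors' counting used strand was not stated, and Ccl2 overlaps Gm17268 and Ccl6 overlaps E230016K23Rik on the opposite strand. Between transcripts of Ccl9 and those of other genes there were 84 alignments of at least 100 nt at 95% identity or more. For each of the other 8 there were 0. Several alignments may cover the same part of Ccl9, and its level is less certain than those of the other 8.

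Promoter sequence was available for 6 of the 9 genes in the RefSeq table for GRCm38.p6. The 100 bases before the start of Ccl9, Ccl8 and Ccl3 are shown because their estimates with TJ differed most among the ligands with a promoter entry (Ccl9 lowest, Ccl8 nearest to 0) and because Ccl3 was called. Capitals mark the letters of 3 short elements, each read on both strands. The first was the core of the TATA box, TATAAA. The second was a loosened form of the AP-1 element, spelled TGANTCA with N for any base, which takes in more than the known element. The third was a form of the kappa B element, GGNNTTTCC. The stretches are chr11:83578637-83578736 on the minus strand for Ccl9, chr11:82115085-82115184 on the plus strand for Ccl8 and chr11:83649379-83649478 on the minus strand for Ccl3.
Ccl9: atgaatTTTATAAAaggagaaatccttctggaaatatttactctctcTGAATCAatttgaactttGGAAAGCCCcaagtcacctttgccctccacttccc
Ccl8: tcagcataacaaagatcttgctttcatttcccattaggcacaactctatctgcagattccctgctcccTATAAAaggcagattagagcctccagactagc
Ccl3: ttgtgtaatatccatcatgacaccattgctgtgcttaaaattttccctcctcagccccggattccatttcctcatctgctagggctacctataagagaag
In Ccl9 the TATA letters on both strands overlapped each other, starting 94 and 92 bases before the start of the gene, and in Ccl8 they began 32 bases before it. The letters alone do not show a working TATA box. Over the 250 bases before the start, TATAAA occurred in 2 of the 6 genes (Ccl8 and Ccl9) and in 12.4% of all 32851 promoters of that table. The letters TGANTCA occurred in 1 of the 6 (Ccl9, with A at N), against 6.75% of all promoters. GGNNTTTCC occurred in 1 of the 6 (Ccl9), against 4.93%. The C/EBP letters TTNNNCAA occurred in 4 of the 6 (Ccl3, Ccl8, Ccr1 and Ccr2), against 33.3%. These are descriptions of letters in a window and not of sites bound in eWAT.

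ND replicate 1 stood apart from every other library. Its summed FPKM was 17303 over 9 epididymis markers and 96153 over 10 testis germ cell markers, against 10.8 and 10.5 (epididymis) and 183 and 2793 (testis) in ND replicates 2 and 3. Its sum over 8 adipocyte markers was 4034 FPKM, against 35714 and 23256 in the other ND libraries, and its Spearman correlation with any other library reached 0.526. HFD replicate 2 held 1291 FPKM of epididymis markers and HFD replicate 1 held 1984 FPKM of testis markers, while GT and TJ libraries held at most 12.6 and 112. The fold change of each of the 8 genes tested for HFD against ND is given with and without ND replicate 1. Summed adipocyte markers, which define the labelled tissue, were at 19735 to 59262 FPKM in the other 11 libraries. Estimated depth was 9.9M fragments in ND replicate 1 and 14.9M to 19.7M in the rest, and no 2 libraries held identical values.

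**Figure D1:**
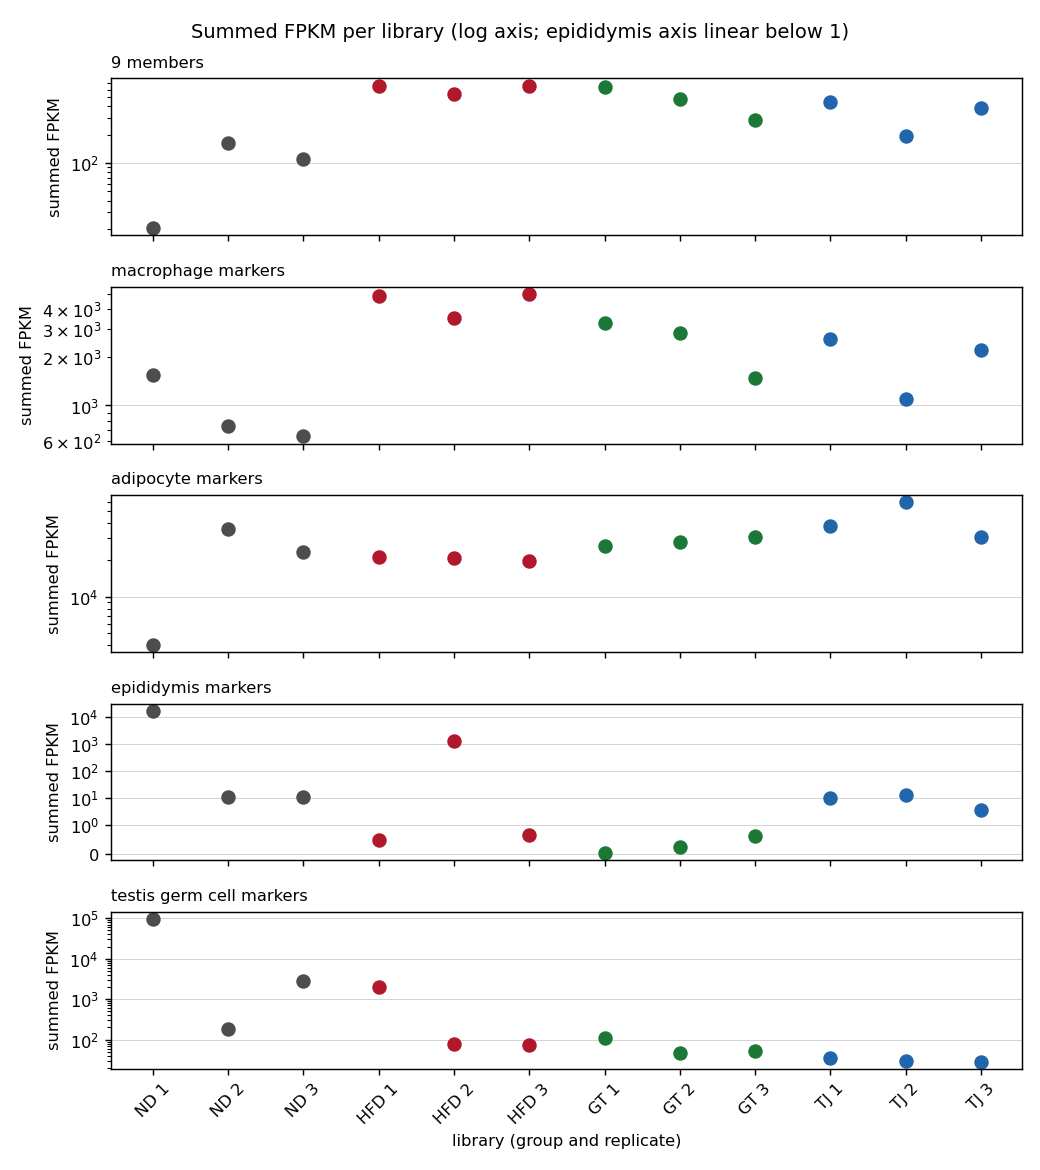
Summed FPKM per library (log axes, the epididymis axis linear below 1) of the 9 chemokine and receptor genes and of the macrophage, adipocyte, epididymis and testis germ cell markers, with libraries along the x axis and colored by group. ND replicate 1 is lowest for the 9 genes (20.4) and for adipocyte markers (4034) and highest for epididymis (17303) and testis (96153) markers.

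In HFD-fed mice the ligand transcripts spanned a wide range of levels. Ccl6 was highest at 288 ± 45.9 FPKM (SD, n = 3), followed by Ccl9 at 195 ± 23.6. Ccl2 (40.9 ± 7.76), Ccr2 (39.6 ± 5.44), Ccl8 (25.7 ± 3.82) and Ccl7 (18.3 ± 2.21) were of middle level, and Ccr1 (7.69 ± 0.717), Ccl3 (3.75 ± 0.972) and Ccl4 (1.43 ± 0.208) were low. In this order only Ccl2 and Ccr2 were neighbours whose libraries overlapped. With TJ, Ccl6 remained highest at 177 ± 56.0 FPKM and its libraries all stood above those of Ccl9 (75.5 ± 46.4), whereas the libraries of Ccl9, Ccr2 (30.1 ± 13.7) and Ccl8 (23.5 ± 11.0) overlapped. Ccl2 was at rank 3 of the 9 genes with the HFD and at rank 5 with GT and with TJ.

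**Figure D2:**
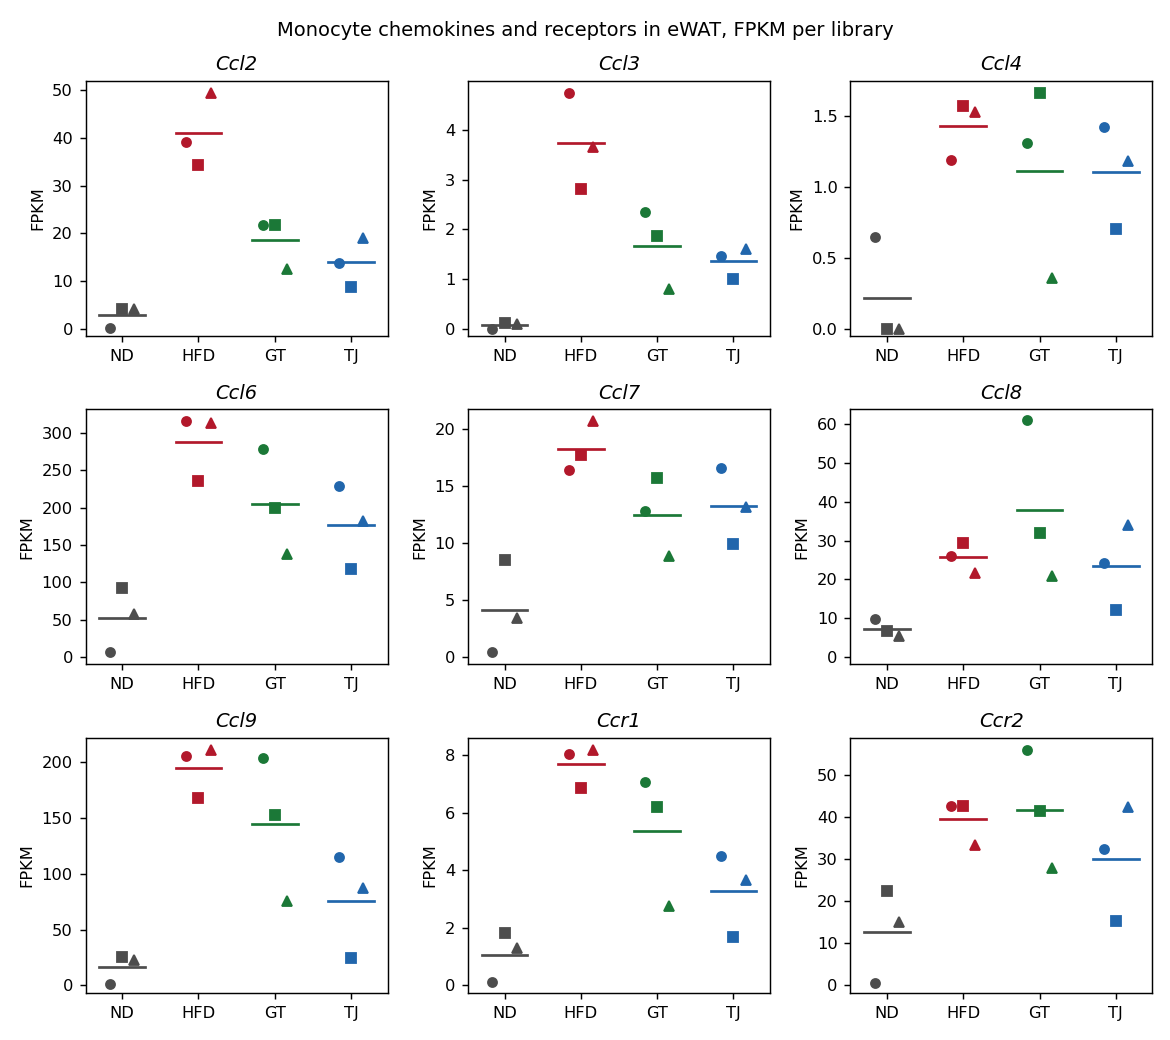
FPKM of each gene in every library by diet group (linear axes that differ between panels), with a circle, square and triangle for replicates 1, 2 and 3 and a line at the group mean. All HFD points are above all ND points in the 9 panels, and the HFD points of Ccl2 and Ccl3 are above all GT and TJ points.

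All 8 of the genes that could be tested rose with the HFD against ND once ND replicate 1 was left out, from Ccr2 at 2.11 times to Ccl2 at 10.1 times and Ccl3 at 36.8 times the ND mean in FPKM, the last against ND values near 0.1 FPKM. With that library in the fit 1 of the 8 genes tested was called higher, and without it 8 of 8 were. A gene was called at a Benjamini-Hochberg adjusted p under 0.05 over all genes tested and a fold change of at least 1.5, with limma on log2(FPKM + 1). Of all genes tested, 1.73% were called higher with all 6 libraries and 11.0% without ND replicate 1. All log2 fold changes below are on that log2(FPKM + 1) scale, which understates the change of low genes such as Ccl3.

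Ccl2, the main ligand of Ccr2, was at 39.0, 34.3 and 49.5 FPKM in the 3 HFD libraries and at 0.16, 4.04 and 4.08 in the 3 ND libraries. The lowest HFD value was well above the highest ND value. Its log2 fold change was 3.74 ± 0.64 (SE; adjusted p = 0.0547, limma), short of the threshold, and 3.03 ± 0.18 (adjusted p = 0.00105, limma) without ND replicate 1. Ccl7, which shares the receptor, stood at 16.4, 17.7 and 20.7 FPKM with the HFD and at 0.44, 8.50 and 3.41 with ND. Its ND libraries were spread over a wider range than those of Ccl2, and ND replicate 1 was again lowest. The log2 fold change of Ccl7 was 2.29 ± 0.70 (adjusted p = 0.249, limma), and 1.57 ± 0.34 (adjusted p = 0.0388) without that library.

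Ccl8, whose protein in mice is known as a ligand of Ccr8, was at 26.1, 29.3 and 21.7 FPKM with the HFD and 9.87, 6.63 and 5.44 with ND. Unlike in 7 of the 9 genes, ND replicate 1 was not the lowest ND library here but the highest. HFD against ND gave 1.71 ± 0.32 on the log2 scale with that library (adjusted p = 0.0712, limma) and 1.92 ± 0.18 without it (adjusted p = 0.00321).

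Ccl6 and Ccl9 were the most abundant members in ND as in HFD. Ccl6 stood at 316, 235 and 313 FPKM with the HFD and at 7.07, 92.8 and 57.9 with ND, and Ccl9 at 205, 168 and 211 against 1.5, 25.7 and 22.6. The groups did not overlap for either gene, and in both the gap between ND replicate 1 and the other ND libraries was large. Ccl9 had a log2 fold change of 4.06 ± 0.94 (adjusted p = 0.129, limma), and 2.95 ± 0.15 (adjusted p = 0.0009) without ND replicate 1, and for Ccl6 the values were 3.01 ± 0.93 (adjusted p = 0.255) and 1.95 ± 0.25 (adjusted p = 0.00847).

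Ccl3, a ligand of Ccr1, was the only member called with all 6 libraries. It was at 4.76, 2.82 and 3.66 FPKM with the HFD, and in ND it was listed at 0 in replicate 1 and stood at 0.11 and 0.10 in the others. The log2 fold change was 2.13 ± 0.33 (adjusted p = 0.0449, limma) and 2.09 ± 0.32 (adjusted p = 0.0132) without ND replicate 1. Ccl4, an attractant of monocytes and T cells, stood at 1.19, 1.57 and 1.53 FPKM with the HFD and was listed at 0.65, 0 and 0 in ND. Its mean over the 6 libraries was under 1 FPKM, so it was not tested, although the 2 groups did not overlap.

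The receptors were higher with the HFD as well. Ccr1 was at 8.01, 6.87 and 8.18 FPKM against 0.12, 1.80 and 1.30 with ND, and Ccr2 was at 42.8, 42.8 and 33.4 against 0.62, 22.5 and 15.1. The groups did not overlap for either receptor. For Ccr1 the log2 fold change was 2.17 ± 0.43 (adjusted p = 0.0865, limma) and 1.77 ± 0.20 (adjusted p = 0.00538) without ND replicate 1. For Ccr2 the values were 2.25 ± 1.01 (adjusted p = 0.477, limma) and 1.05 ± 0.22 (adjusted p = 0.0324) in the same order.

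All 8 genes tested had every HFD library above every ND library, which held for 20.5% of all genes tested, and for 28.0% without ND replicate 1. For a single gene the exact two-sided permutation test of 3 libraries against 3 gave p = 0.1 in each case, the smallest it can give. The median log2 fold change of the 8 was 2.27, and 1.93 without ND replicate 1, beside 0.07 and -0.02 over all genes tested. With the replicate number as a block, 0 of the 8 and 0 of all genes were called by limma (2239 genes had an unadjusted p under 0.05), with ND replicate 1 in the fit. Leaving out HFD replicate 2 as well as ND replicate 1, since it too held epididymis transcripts, left 5 of 8 called (Ccl2, Ccl6, Ccl8, Ccl9 and Ccr1). Also without ND replicate 1, the calls of Ccl7 and Ccr2 were lost with median-of-ratios scaling (adjusted p = 0.0784 and 0.0793, limma) and with quantile normalization (0.0904 and 0.0686), and that of Ccr2 with the spread shared over all other libraries (0.0859).

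The HFD libraries also held more transcripts of macrophages, with a summed FPKM over 12 markers of 3539 to 4978 against 640 to 1543 in ND. The upper ND value was ND replicate 1, of which Aif1 alone made 1355 FPKM. Of these 12 markers 5 were called higher, and 10 once ND replicate 1 was left out (median 2.44 on the log2 scale), with none called lower. None of the 12 was listed at 0 in any library. Without ND replicate 1, 2 of 7 monocyte, 1 of 4 dendritic cell, 4 of 7 progenitor and fibroblast and 2 of 3 neutrophil markers tested were also called higher. Of 8 adipocyte markers 4 were called lower and 1, Lep, higher (1.76 ± 0.17 on the log2 scale, adjusted p = 0.00358, limma), and 3 of 7 mesothelium markers were called lower, where 4.34% of all genes tested were. With median-of-ratios scaling 1 adipocyte and 1 dendritic cell marker were called lower, and with quantile normalization 1 mesothelium marker was. In such bulk tissue fewer cells of a type and less RNA per cell cannot be told apart, and the part of these cell types in the difference between groups was not tested.

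**Figure D3:**
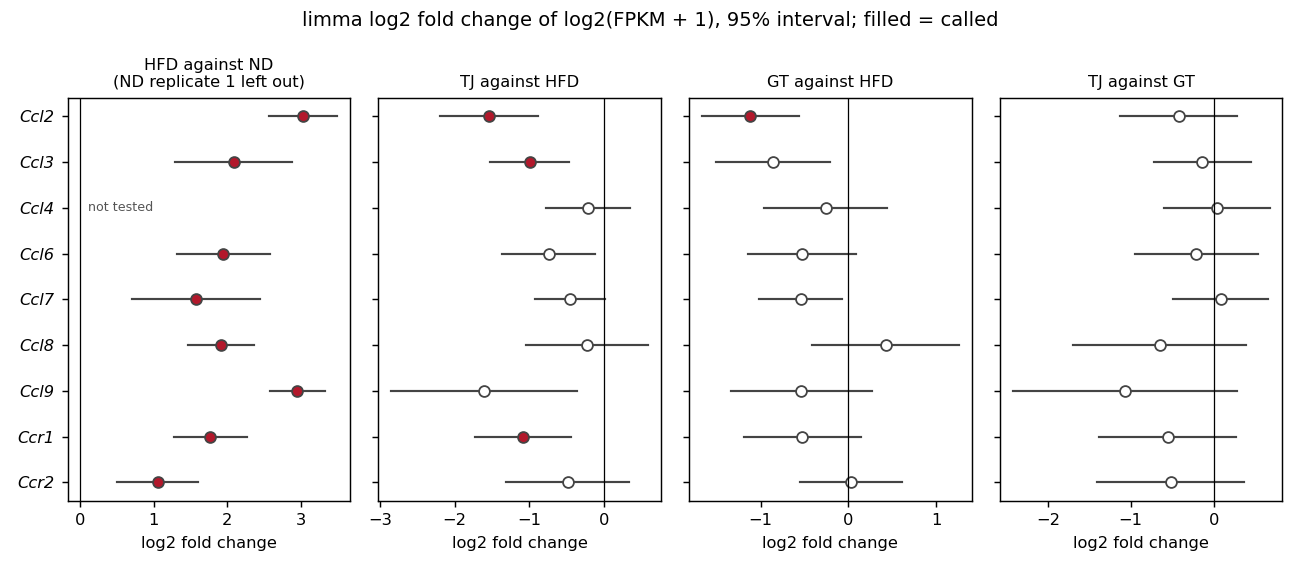
Log2 fold change (x axis, log2(FPKM + 1) scale) of each gene with its 95% interval in 4 comparisons, with filled points for genes called and open points for genes not called. Without ND replicate 1 all 8 genes tested are called higher for HFD against ND, while 3 genes are called for TJ against HFD, 1 for GT against HFD and 0 for TJ against GT.

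In mice given TJ, 3 of the 9 genes were lower than with the HFD alone by the test over all genes. Ccl2 fell to a mean 66.1% below that of the HFD group, Ccl3 63.7% below and Ccr1 57.4% below. The other 6 had log2 fold changes below 0 that did not pass the test. Of all genes tested, 11.1% were called lower, and the 3 of 9 is read against that share. The median log2 fold change of the 9 was -0.74, beside -0.14 over all genes tested.

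Ccl2 was at 13.8, 8.77 and 19.0 FPKM in the 3 TJ libraries, all below the lowest HFD library at 34.3. Its log2 fold change was -1.54 ± 0.28 (adjusted p = 0.0248, limma). The TJ libraries were in turn all above the highest ND library, at 4.08. Ccl3 was at 1.47, 0.99 and 1.61 FPKM with TJ, below the lowest HFD value of 2.82, and its log2 fold change was -0.998 ± 0.22 (adjusted p = 0.0316, limma). Ccr1, the receptor of Ccl3, Ccl6 and Ccl9, stood at 4.48, 1.68 and 3.67 FPKM with TJ. The values were all below the lowest HFD value of 6.87, and the log2 fold change was -1.08 ± 0.27 (adjusted p = 0.0387, limma).

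The most abundant ligands were lower in every TJ library than in any HFD library and did not pass the test. Ccl9 was at 115, 24.5 and 86.8 FPKM with TJ, and TJ replicate 2 lay far below the other TJ libraries, at a level seen in ND. The log2 fold change was -1.61 ± 0.53 (adjusted p = 0.0665, limma), an estimate near that of Ccl2 with a larger error. Over left-out libraries it ranged from -2.04 to -0.94. Ccl6 was at 229, 118 and 183 FPKM with TJ, the highest just under the lowest HFD library at 235. Its log2 fold change was -0.74 ± 0.26 (adjusted p = 0.0811, limma). Non-overlap of this kind, seen for Ccl2, Ccl3, Ccl6, Ccl9 and Ccr1, held for 31.4% of all genes tested.

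The other 4 overlapped the HFD group. Ccl7 was at 16.6, 9.91 and 13.2 FPKM with TJ (log2 fold change -0.46 ± 0.20, adjusted p = 0.124, limma), and TJ replicate 1 stood just above HFD replicate 1. Ccl8 was at 24.3, 12.1 and 34.0 FPKM, on both sides of the HFD values, and its interval ran from -1.04 to 0.59 on the log2 scale. Ccr2 was at 32.5, 15.4 and 42.4 FPKM, with an interval from -1.31 to 0.33. Ccl4 was at 1.43, 0.71 and 1.18 FPKM, with an interval from -0.78 to 0.34. These intervals hold both no difference and, for Ccl8 and Ccr2, a fall larger than the estimate for Ccl3, so the data do not show that these genes were unaffected.

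The 3 calls depended on the libraries. Without any 1 of HFD replicates 1, 2 and 3 or TJ replicate 1, 0 of the 9 genes and 0 of all genes passed by limma, although 3732 to 4735 genes had an unadjusted p under 0.05. Without TJ replicate 2, 4 of the 9 were called. Of the 9, 0 were also called without the filter on low values (smallest adjusted p = 0.0528, limma) and when all 12 libraries shared the spread (0.113). In a shared fit without ND replicate 1, chosen after seeing the data, 4 were called (Ccl2, Ccl3, Ccl9 and Ccr1). Ccl3 was lost with quantile normalization, under which Ccl6 and Ccl9 passed. The log2 fold change stayed below 0 for Ccl2, Ccl3, Ccl6, Ccl7, Ccl9, Ccr1 and Ccr2 under all alternatives run, and that of Ccl2 ranged from -1.79 to -1.27.

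TJ replicate 2 was the lowest TJ library for all 9 genes, and their summed FPKM was 192 there against 439 and 385 in TJ replicates 1 and 3. It was also lowest for macrophage markers, at 1094 FPKM against 2587 and 2235, and highest for adipocyte markers, at 59262 FPKM against 37585 and 31035. Over the TJ group the macrophage marker sum was 1094 to 2587 FPKM against 3539 to 4978 with the HFD, with 9 of the 12 markers called lower and a median log2 fold change of -1.20. Adgre1, which encodes the macrophage marker F4/80, had a log2 fold change of -2.51 ± 0.62 (adjusted p = 0.0380, limma). The adipocyte marker sum was 31035 to 59262 FPKM with TJ against 19735 to 21236 with the HFD. Most of it was Fabp4, at 21797 to 48299 FPKM with TJ. Of the 8 adipocyte markers 6 had estimates above 0 and 2 below. These 2 were Lep (mean 612 against 1094 FPKM) and Lpl (1872 against 2479), and TJ replicate 2 was the lowest TJ library for both. Whether the lower chemokine levels followed cell composition was not tested.

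The remaining marker lists moved less evenly. For TJ against HFD, 0 of 7 monocyte markers tested, 0 of 3 neutrophil, 0 of 2 T and NK cell and 0 of 2 B cell markers were called, while at an unadjusted p under 0.05 there were 2, 0, 1 and 0. The summed FPKM of monocyte markers was 205 to 396 with TJ and 158 to 172 with the HFD, mostly from Ly6c1, which endothelial cells also express. Of 4 dendritic cell markers tested 2 had estimates above 0 and 2 below, 3 had an unadjusted p under 0.05 and 1 was called, Itgax, which macrophages of obese fat also express (-2.41 ± 0.63 on the log2 scale). With median-of-ratios scaling or quantile normalization 2 of the 4 were called higher and 1 lower. Called markers were, of progenitor and fibroblast markers 4 of 7 lower, of mesothelium markers 1 of 6 lower, of testis markers 1 of 9 lower, of endothelial markers 1 of 6 higher and of adipocyte markers 4 of 8 higher. Of all genes tested, 7.41% were called higher. Under both other scalings 1 T and NK cell marker and 2 endothelial markers were called higher and 0 mesothelium markers lower. With quantile normalization the adipocyte count was 1, with 1 monocyte marker called higher, and with median-of-ratios scaling the testis count was 0. Of 4 epididymis markers tested 0 were called. Ly6g, which defines neutrophils, was listed at 0 in 11 libraries and Ms4a1, which defines B cells, in all 12.

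With GT, Ccl2 was the 1 gene of the 9 called lower against the HFD, with a mean 54.5% lower, and 7 of the 9 estimates were below 0. The mean of Ccl3 was 55.5% lower and that of Ccl7 31.7% lower, and neither passed the test. Of all genes tested, 1.81% were called lower. Ccl2 was at 21.6, 21.7 and 12.6 FPKM in the GT libraries, all below the lowest HFD value of 34.3, and its log2 fold change was -1.12 ± 0.23 (adjusted p = 0.0489, limma). That call stood just inside the threshold and was kept without GT replicate 1 alone of the 6 libraries left out in turn. It was also lost without the filter, with median-of-ratios scaling, with all 12 libraries and without the variance trend.

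Ccl3 was at 2.34, 1.87 and 0.79 FPKM with GT and Ccl7 at 12.8, 15.8 and 8.90. All of these were below every HFD library of the same gene, which held with Ccl2 for 3 of the 9 genes and for 24.4% of all genes tested. The log2 fold changes were -0.86 ± 0.28 for Ccl3 (adjusted p = 0.104, limma) and -0.54 ± 0.20 for Ccl7 (adjusted p = 0.132). Ccl6 (278, 200 and 138 FPKM), Ccl9 (204, 153 and 75.6) and Ccr1 (7.08, 6.20 and 2.76) overlapped the HFD group, with log2 fold changes of -0.53, -0.54 and -0.53. In each of these GT replicate 1 was near the HFD values and GT replicate 3 was low. Over left-out libraries the log2 fold changes ranged from -0.78 to -0.28 for Ccl6, -0.84 to -0.13 for Ccl9 and -0.74 to -0.19 for Ccr1.

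Ccl8 and Ccr2 had means no lower with GT than with the HFD. Ccl8 was at 61.0, 32.0 and 20.95 FPKM, and GT replicate 1 was the highest library of the 12 for this gene. Its log2 fold change was 0.42 ± 0.35 (adjusted p = 0.451, limma). Ccr2 was at 56.1, 41.5 and 27.9 FPKM, spread on both sides of the HFD libraries, and its log2 fold change was 0.03 with an interval from -0.56 to 0.62. Ccl4 was at 1.31, 1.67 and 0.36 FPKM with an interval from -0.96 to 0.45.

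GT replicate 3 was the lowest GT library for all 9 genes, and their sum was 287 FPKM there against 645 and 473 in GT replicates 1 and 2. Its macrophage marker sum was also lowest, at 1492 FPKM against 3277 and 2837. All 12 macrophage markers had a log2 fold change below 0 with GT, with a median of -0.82 and none called (9 had an unadjusted p under 0.05, limma). The median log2 fold change of the 9 genes was -0.53, beside -0.12 over all genes tested. Without GT replicate 3 these medians were -0.19 and -0.10. All 7 progenitor and fibroblast markers had estimates below 0 with 2 called, among them Pi16 (-0.96 ± 0.16, adjusted p = 0.0379, limma). All 8 adipocyte markers had estimates above 0 with 1 called, Plin1 (0.97 ± 0.17, adjusted p = 0.0379), where 1.83% of all genes tested were called higher. The part of these cell types in the difference was not tested.

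The TJ and GT values above share their HFD libraries, so the additives were compared directly. No member differed between TJ and GT by limma, with 0 of 9 called and 0 with an unadjusted p under 0.05, and of all genes tested 0.148% were called in either direction. For Ccl2 the log2 fold change of TJ against GT was -0.42 (95% interval -1.13 to 0.28), and for Ccr1 it was -0.56 (-1.39 to 0.27). The largest estimate was that of Ccl9, at -1.07 (-2.42 to 0.28), and for Ccl8 it was -0.65 (-1.69 to 0.39). These intervals allow a level with TJ well under that with GT, so the additives are not shown to act alike. TJ was given at 3% and GT at 0.25% of the diet, which differ.

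The other chemokine genes did not move as one with these 9 (see the plot of the chemokine family for TJ against HFD). Of the 13 other CC ligands, 8 were tested for TJ against HFD, and 2 were called higher and 0 lower, where 7.41% of all genes tested were called higher. Ccl5, which attracts T cells, was at 11.8, 14.4 and 12.5 FPKM with TJ and 7.25, 7.76 and 6.53 with the HFD, a log2 fold change of 0.76 ± 0.13 (adjusted p = 0.0247, limma). The TJ libraries were all above the HFD libraries. The other was Ccl11, the eosinophil attractant, named after its value was seen, at 64.6, 96.7 and 65.8 FPKM against 48.1, 47.9 and 37.5 (log2 fold change 0.74 ± 0.20, adjusted p = 0.0439, limma).

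Of the 17 CXC, CX3C and XC ligands, 9 were tested, with 1 called higher and 1 lower. Of all genes tested, 7.41% were called higher and 11.1% lower. Cxcl9, an interferon-induced ligand of Cxcr3, was at 23.9, 38.0 and 27.0 FPKM with TJ against 9.48, 11.2 and 10.2 with the HFD, a log2 fold change of 1.42 ± 0.19 (adjusted p = 0.0196, limma). TJ replicate 2, lowest for the 9 monocyte genes, was highest here. Cxcl14 was at 2.38, 1.40 and 2.44 FPKM against 7.97, 3.99 and 9.61, and its log2 fold change was -1.36 ± 0.31 (adjusted p = 0.0323, limma).

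Among 16 other chemokine receptors, 6 were tested, with 2 called lower and 0 higher, where 11.1% of all genes tested were called lower. Of the 6, 3 had estimates above 0 and 3 below, and 4 had an unadjusted p under 0.05 (limma). Cx3cr1, the fractalkine receptor, named after its value was seen, was at 1.14, 0.78 and 1.70 FPKM with TJ against 3.26, 2.64 and 2.81 with the HFD, a log2 fold change of -0.84 ± 0.22 (adjusted p = 0.0424, limma). All TJ libraries were below all HFD libraries. Of the 5 atypical receptors, which bind ligands without the usual signalling, all were tested and 0 were called or had an unadjusted p under 0.05, and the largest estimate was 0.37 ± 0.36 for Ackr4.

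Of 6 genes of monocyte growth factor signalling, 5 were tested, with 1 called in each direction. Of these 5, 4 had estimates below 0. Csf1r, the receptor that macrophages need to survive, was at 85.6, 32.1 and 80.7 FPKM with TJ against 181, 152 and 189 with the HFD, a log2 fold change of -1.50 ± 0.36 (adjusted p = 0.0372, limma). Its ligand gene Il34 was at 15.0, 22.9 and 15.3 FPKM against 8.83, 6.61 and 8.08, a log2 fold change of 1.06 ± 0.20 (adjusted p = 0.0249, limma). Csf1r and Il34 thus differed from the HFD in opposite directions, and TJ replicate 2 was the lowest TJ library for Csf1r and the highest for Il34. The other ligand gene of this receptor, Csf1, named after its value was seen, was lower with TJ and was not called. It was at 12.0, 12.7 and 13.6 FPKM with TJ against 16.3, 17.2 and 16.2 with the HFD. As no gene at all passed without any 1 of the HFD libraries or TJ replicate 1, the calls in these lists rest on those libraries too.

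**Figure D4:**
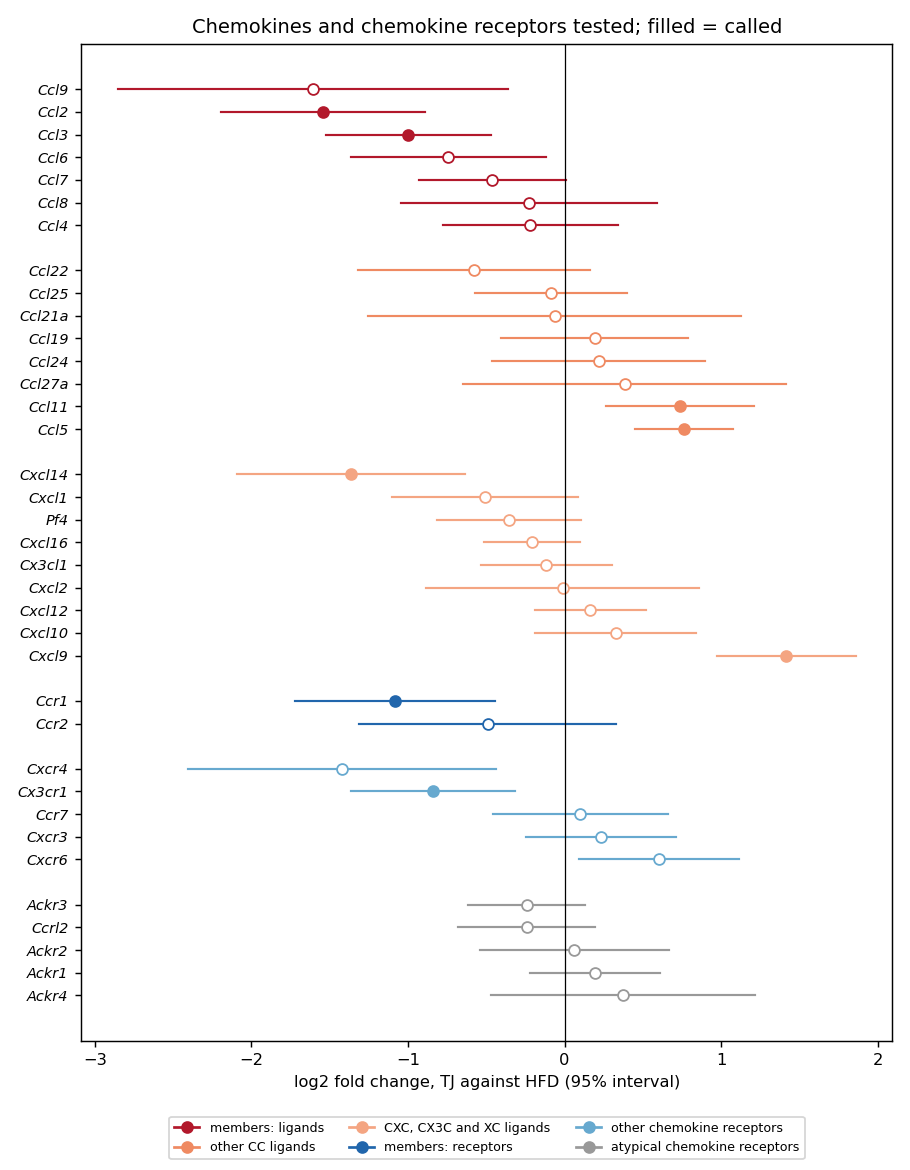
Log2 fold change with its 95% interval for TJ against HFD (x axis, log2(FPKM + 1) scale) of the chemokine and chemokine receptor genes tested, 1 receptor left out, colored by list, with filled points for genes called. The 9 monocyte genes all have estimates below 0, and called genes above 0 are Ccl5, Ccl11 and Cxcl9.

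With GT the same lists held 1 called gene, Cxcl14, at 1.99, 2.22 and 1.63 FPKM and a log2 fold change of -1.41 ± 0.28 (adjusted p = 0.0477, limma). With quantile normalization it was not called, and under both other scalings 1 other ligand of its list was called higher. Among the other lists, estimates were 0.43 ± 0.19 for Ccl5 (adjusted p = 0.183), -0.34 ± 0.14 for Ccrl2 (adjusted p = 0.160) and -0.71 ± 0.26 for Csf1r (adjusted p = 0.133). For TJ against GT, 0 genes of these lists were called by limma, and 4 had an unadjusted p under 0.05.

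For HFD against ND the lists held 1 called gene with all 6 libraries, Csf2ra, which encodes a receptor chain for GM-CSF (log2 fold change 3.11 ± 0.48, adjusted p = 0.0450, limma). Without ND replicate 1, 0 of 9 other CC ligands, 3 of 11 CXC, CX3C and XC ligands, 2 of 5 other receptors, 1 of 5 atypical receptors and 3 of 5 growth factor genes were called, all higher. In that fit the log2 fold change was 1.84 ± 0.37 for Cxcl14 (adjusted p = 0.0304, limma), 1.12 ± 0.23 for Ackr1 (adjusted p = 0.0311) and 2.68 ± 0.30 for Csf2ra (adjusted p = 0.00585). Of the other CC ligands tested, Ccl27a had the largest estimate, -1.16 ± 0.62 (adjusted p = 0.280). When median-of-ratios scaling or quantile normalization was added to that fit, the call of Ackr1 was lost. The count of CXC, CX3C and XC ligands was then 2. With ND replicate 1 in the fit, the values were 1.66 ± 0.41 for Cxcl14 (adjusted p = 0.158, limma), 1.49 ± 0.43 for Ackr1 (adjusted p = 0.220) and -3.29 ± 1.82 for Ccl27a (adjusted p = 0.494).

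The genes whose pattern over the 12 libraries was most like the mean of the 8 members with at least 1 FPKM on average were Lrmp (Pearson r = 0.998), Evi2a, Pld4, Irf5, Ctsl, Plaur, Selplg, Ppfibp2, Tmem106a and Psap, the tenth at r = 0.992. The measure was made on log2(FPKM + 1) with each gene set to mean 0 and SD 1. Among 13935 genes, 809 had r above 0.9, so a high value was common, and all of these genes share the same libraries and group structure. Without ND replicate 1 the 10 genes had r of 0.982 to 0.996. Lrmp was at 32.4, 27.5 and 30.4 FPKM with the HFD, 25.9, 19.2 and 11.1 with GT, 17.3, 7.23 and 16.6 with TJ and 0.43, 5.96 and 3.71 with ND. As with the 9 genes, TJ replicate 2 and GT replicate 3 were the lowest of their groups.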

How the data were processed

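Total RNA of eWAT (TRIzol, TruSeq, paired-end HiSeq reads) was mapped by the authors with STAR (version 2.4.0 per the labels) after CASAVA 1.8.2, and FPKM were computed with Cufflinks 2.1.1 on Ensembl release 72 (noncoding regions masked; corrected for multireads and fragment bias). Although the paper states a human genome, each of the 23474 deposited identifiers is a mouse gene. The deposited values are FPKM without counts, so no counting intervals are given, and depth was estimated from the smallest FPKM steps of 2315 genes.

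Genes were named and located with GENCODE mouse release 21 (22671 matched). limma 3.58.1 (R 4.3.3, trended eBayes) was fitted to log2(FPKM + 1) of the 6 libraries of each pair of groups, for genes whose mean was 1 FPKM or more. Calls needed a Benjamini-Hochberg adjusted p under 0.05 and a 1.5-fold change. The fit was tested on simulated data. Exact permutation tests used scipy 1.17.1, transcripts were matched with blastn 2.17.0, and tables and plots used python 3.11.15, pandas 2.3.3, numpy 2.4.6 and matplotlib 3.10.9.

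The text names the 9 members, from each other chemokine or growth factor list the called gene with the largest change in each direction or otherwise the largest estimate, and the 10 genes most like the members. Genes, lists and tests were chosen with earlier results of these data known. Deviations of HFD and ND libraries with the same replicate number had correlations of 0.55, 0.34 and 0.12, against up to 0.63 between different numbers. As none of the 3 was below 0.1 the blocked result is given for them, but a pairing by number is not shown. For the other comparisons at least 1 of the 3 correlations was below 0.1. Alternatives were another pseudocount, filter, scaling or variance model, all 12 libraries, the replicate block and leaving out libraries. Those that combine the omission of ND replicate 1 with another change, or fit all other libraries together, were chosen after seeing the data. Values of 1 receptor in the lists are not reported here.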

Additional observations from a re-analysis of the deposited data

How the results depend on the processing

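For HFD against ND, 1 member was called. That count was 0 with a pseudocount of 0.1, with a filter at a mean of 5 FPKM, with quantile normalization and with the replicate block, 7 with all 12 libraries sharing the spread, and 0 to 8 when libraries were left out in turn. With ND replicate 1 left out it was 8, and then 7 with the spread shared over all other libraries, 5 without HFD replicate 2, 6 with median-of-ratios scaling, 6 with quantile normalization and 8 with a pseudocount of 0.1. For TJ against HFD, 3 were called, 0 without the filter and with all 12 libraries, 2 with the replicate block or the filter at 5 FPKM (Ccl2 and Ccr1), 4 with quantile normalization (Ccl2, Ccl6, Ccl9 and Ccr1), and 0 to 4 when libraries were left out in turn. With all libraries but ND replicate 1 sharing the spread, 4 were called. For GT against HFD, 1 was called, and 0 without the filter, with median-of-ratios scaling, with all 12 libraries, with the replicate block, without the trend and with all libraries but ND replicate 1, and 0 to 1 when libraries were left out in turn. For TJ against GT 0 were called under every alternative run. The cause was not tested.

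Over all genes, called counts were 255 for HFD against ND, 2366 for TJ against HFD and 464 for GT against HFD. For HFD against ND the count was 0 with the replicate block and 2098 without ND replicate 1. It was 0 to 24 when another library was left out. For TJ against HFD it was 382 without the filter, 1 with all 12 libraries and 1198 with the block. Leaving out libraries in turn gave 0 to 3412. For GT against HFD it was 5 without the filter or with the block and 1107 without GT replicate 1. It was 4 to 66 when another library was left out. Median-of-ratios scaling changed the split of higher and lower calls from 949 and 1417 to 1285 and 1082 for TJ against HFD, and from 233 and 231 to 399 and 145 for GT against HFD.

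The same scaling moved the median log2 fold change of all genes from -0.14 to -0.02 for TJ against HFD and from -0.12 to -0.01 for GT against HFD, and quantile normalization moved them to 0.03 and 0.03. Ccl2 and Ccr1 had estimates below 0 for TJ against HFD under both scalings.

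Estimates that changed sign were all of uncalled genes. For TJ against HFD, Ccl4 was 0.10 with quantile normalization, and Ccl8 ranged from -0.54 to 0.17 over left-out libraries, above 0 without TJ replicate 2. For GT against HFD, Ccl4 was 0.0247 with quantile normalization and ranged from -0.45 to 0.0335, and Ccr2 from -0.21 to 0.29. For TJ against GT the ranges over left-out libraries were -0.40 to 0.0486 for Ccl3, -0.25 to 0.18 for Ccl4, -0.47 to 0.0554 for Ccl6 and -0.12 to 0.26 for Ccl7. FPKM without counts, and 3 mice in a group, limit the precision.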
